A study of Mus musculus with 32 samples.

Results

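The results below concern 40 genes of skeletal muscle, read library by library in bulk RNA sequencing of KPC36 tumours. They are the rows of the deposited table that carry the listed symbols of fast and slow fibre contractile proteins, shared sarcomere and cytoskeleton proteins, calcium handling proteins and muscle metabolic enzymes. All 40 symbols were found, among 55103 genes in the table. The rule uses symbols and no threshold on a measured value, and the symbols were chosen with earlier results of these data known. KPC36 is a mouse cell line whose genotype the labels do not give, and lines named KPC are commonly derived from mouse models of pancreatic cancer. The labels put 8 libraries in each of 4 groups, namely carbon-ion irradiated tumours (labelled carbon_treated), their untreated controls (carbon_ctrl), photon irradiated tumours (photon_treated) and their untreated controls (photon_ctrl). Tumours of every group were taken 4 or 7 days after treatment of the irradiated ones, and the labels used here do not give the day of a library, the dose, the site at which the tumours grew, or the age, sex or strain of the mice. They also do not say whether each library came from its own animal, so p-values measure only the spread between these samples. The question the design addresses is how gene expression differs between carbon-ion and photon treated tumours.

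Skeletal muscle fibres contract through sarcomeres, in which myosin thick filaments pull on actin thin filaments when calcium released from the sarcoplasmic reticulum binds troponin. Fast fibres use the myosin heavy chains Myh4, Myh1 and Myh2 with their own troponins and light chains, and slow fibres use Myh7 with the slow troponins and Myl2. Muscle identity is set by the myogenic transcription factors of the MyoD family, which bind the E-box, and by MEF2, and serum response factor binds the CArG box.

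The promoters of 4 members are shown here because 3 of these genes moved together across the libraries, whereas the slow myosin gene Myh7 did not move with them. Each is the 250 bases before the RefSeq transcription start in GRCm38.p6, printed in the gene's direction, with every E-box (CANNTG, the same on both strands) in capitals. The windows are chr7:19410844-19411093 on the plus strand for Ckm (muscle creatine kinase), chr8:123894776-123895025 on the minus strand for Acta1 (skeletal alpha-actin), chr11:67237562-67237811 on the plus strand for Myh4 (the heavy chain of the fastest fibres) and chr14:54994550-54994799 on the minus strand for Myh7 (the slow heavy chain), for which the more downstream of 2 starts is used.
Ckm: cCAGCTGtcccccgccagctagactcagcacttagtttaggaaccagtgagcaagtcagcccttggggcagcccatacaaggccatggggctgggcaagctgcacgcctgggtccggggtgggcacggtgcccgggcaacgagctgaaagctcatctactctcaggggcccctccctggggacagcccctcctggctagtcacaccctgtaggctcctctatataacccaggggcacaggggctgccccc
Acta1: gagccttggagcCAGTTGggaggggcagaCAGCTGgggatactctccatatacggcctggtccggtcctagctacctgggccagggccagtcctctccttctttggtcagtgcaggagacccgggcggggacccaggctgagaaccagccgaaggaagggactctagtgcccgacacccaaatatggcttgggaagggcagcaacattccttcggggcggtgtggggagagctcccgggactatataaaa
Myh4: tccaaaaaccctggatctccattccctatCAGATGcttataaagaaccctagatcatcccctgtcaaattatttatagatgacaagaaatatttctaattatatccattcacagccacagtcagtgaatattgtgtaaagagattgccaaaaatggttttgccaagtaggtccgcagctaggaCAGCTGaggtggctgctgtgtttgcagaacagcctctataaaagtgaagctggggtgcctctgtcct
Myh7: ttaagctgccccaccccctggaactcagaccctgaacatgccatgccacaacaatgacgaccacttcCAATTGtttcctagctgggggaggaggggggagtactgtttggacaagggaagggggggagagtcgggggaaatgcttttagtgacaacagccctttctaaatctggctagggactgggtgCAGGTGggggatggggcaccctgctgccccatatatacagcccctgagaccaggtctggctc
Of the 40 members, 30 had at least 1 promoter window in the RefSeq table, giving 36 windows. Motifs were counted only in the 250 bases before the start, in these and in all other windows. CANNTG was in 31 of the 36 windows (86.1%), and in 66.2% of all 32851 windows. Its form CAGCTG, which is also counted under CANNTG, was in 18 against 13.0% of all windows. A MEF2 site on either strand was in 7 (19.4%) against 2.92%, and a CArG box on either strand in 2 (5.56%), those of Acta1 and Myh4, against 1.47%. These are matches of letters and no test was made of them.

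Transcripts of skeletal muscle were found in all 4 groups. As a ratio of highest to lowest, the range of their amount within every group was wider than that of the 4 group medians, and photon irradiated tumours were mostly at the low end. Levels are in CPM, the counts of a gene scaled to a common library total, with totals adjusted by the trimmed mean of M values. The summed level of the 40 genes ran from 34.7 CPM in photon irradiated tumour 2 to 10900 CPM in carbon-ion irradiated tumour 3, a 314-fold span, or from 0.00359% to 1.12% of a library's counts. In the carbon-ion controls the sum was 35.9 CPM at the lowest, 986 at the median and 6857 at the highest. The carbon-ion irradiated tumours had 48.2, 1041 and 10900 CPM, and the photon controls 64.6, 2333 and 6971 CPM. The photon irradiated tumours had 34.7, 104 and 1609 CPM. A sum above 1000 CPM was found in 4 of 8 carbon-ion controls, 4 of 8 carbon-ion irradiated tumours, 5 of 8 photon controls and 1 of 8 photon irradiated tumours, so the groups overlapped. Every group also held at least 1 tumour below 100 CPM. In bulk RNA, fewer muscle cells in a piece and less muscle RNA per cell cannot be told apart.

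**Figure D1:**
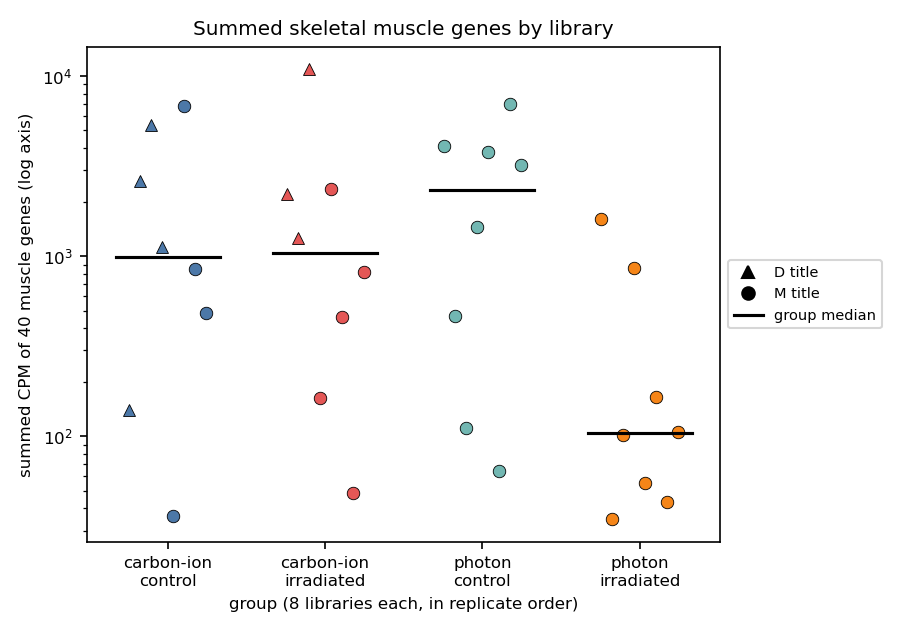
Summed CPM of the 40 skeletal muscle genes on a log axis, 1 point per library in its group, with the group median as a line and the first letter of the library title as the symbol. Photon irradiated tumours have a median of 104 CPM, with 2 tumours at 860 and 1609 CPM, and the other groups have medians of 986 to 2333 CPM.

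Library totals ran from 13891863 to 71645903 counts, with medians of 31429281 to 34990820 counts in the groups. The malignant label was checked against epithelial markers: Krt8, a keratin of simple epithelia, was at 690 to 1719 CPM and Krt19, a ductal keratin, at 233 to 960 CPM over the 32 libraries. In the carbon-ion arm 4 control titles and 3 irradiated ones begin with D, and all other titles begin with M, and the labels do not say what the letters mean.

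Most members followed each other from tumour to tumour. Over the 32 libraries, which share the scaling and the cells of a piece, the Spearman correlation of a member with the sum of the other members had a median of 0.95 and was above 0.9 for 32 members. It was highest for Actn3 (0.99), the alpha-actinin of fast fibre Z-discs. The 6 members below 0.8 were Myl2 (0.33), Myh7 (0.38), Tnnc1 (0.55), Tnnt1 (0.67), Myh2 (0.69) and Tnni1 (0.70), which are all 5 slow fibre genes and the heavy chain of the slower of the fast fibres. Carbon-ion irradiated tumour 3 was the highest library for 20 members, photon control 7 for 9 and carbon-ion control 6 for 8. At least 28 of the 40 genes had a count in each library, and 16 genes were at 0 counts in at least 1 library. Per kilobase of the longest coding transcript, the mean level over the libraries was highest for Acta1 at 149 CPM per kb, followed by Atp2a1 at 35.5 and Des at 29.3. The giant gene Ttn took 35.5% of the summed CPM.

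**Figure D2:**
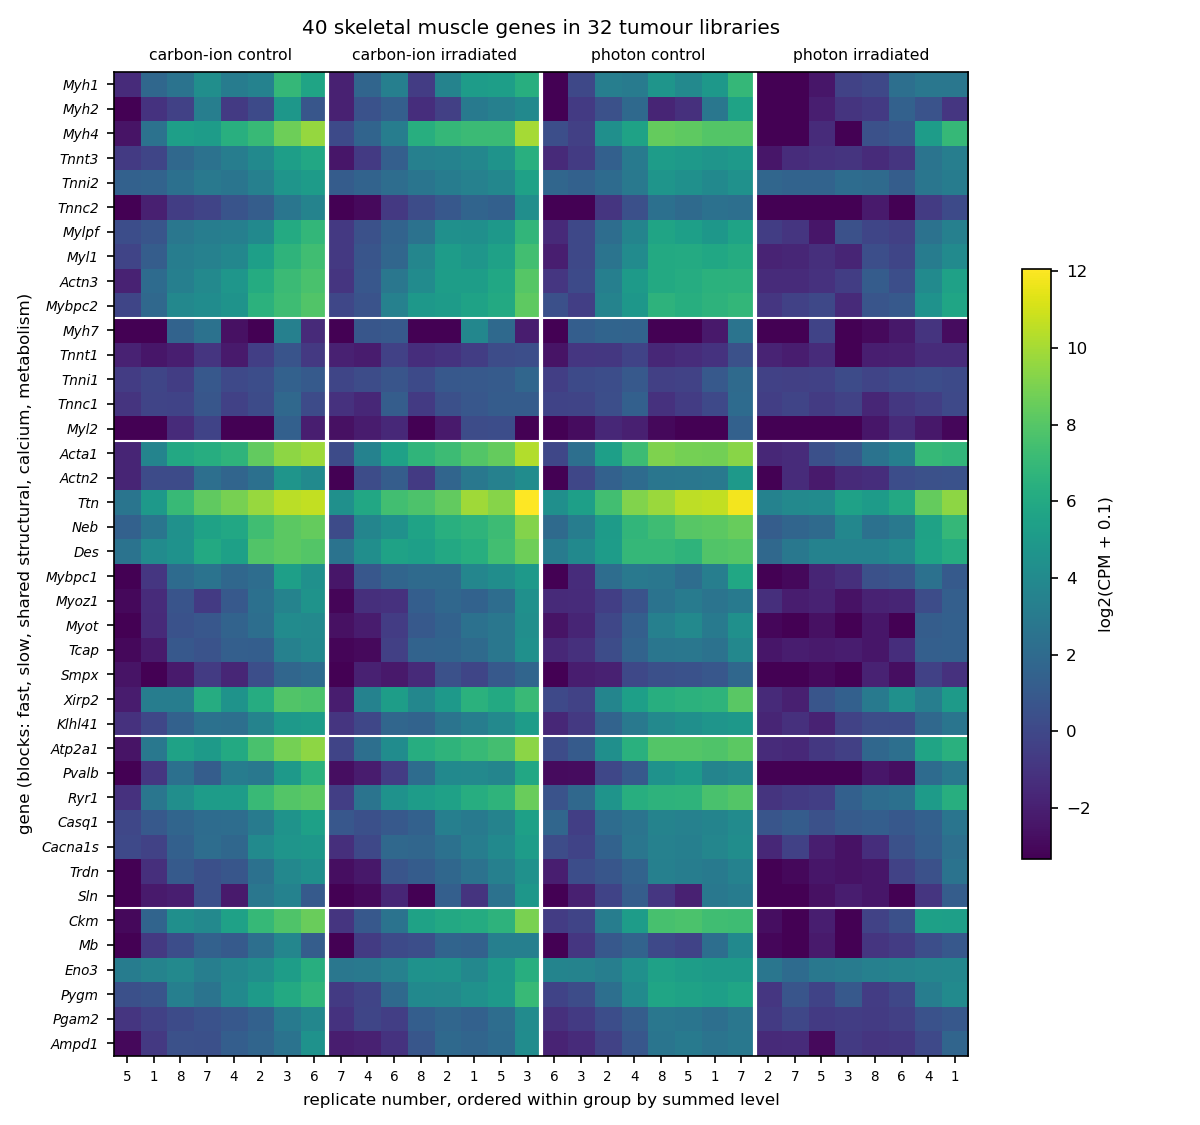
Level of each of the 40 genes (rows, in blocks by role) in each of the 32 libraries (columns, ordered within a group by summed level), as log2(CPM + 0.1). Most rows brighten together from left to right within a group, and the slow block does not, with Myh7 brightest in carbon-ion irradiated tumour 1 (13.6 CPM).

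For a few members the lowest and the highest library lay closer together. The lowest library held 14.7% of the highest library's level for Tnni1 (slow troponin I), 5.26% for Tnnc1 (the troponin C of slow and cardiac muscle), 5.10% for Eno3 (muscle enolase) and 4.70% for Tnni2 (fast troponin I). For Acta1 that share was 0.0161% and for Atp2a1, the calcium pump of fast fibre sarcoplasmic reticulum, 0.0107%. Des, among the most abundant members, had at least 158 counts in each library.

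Photon irradiated tumours had lower fitted values of every tested muscle gene than their own controls, and 1 of these differences passed the test. In edgeR's quasi-likelihood test, 1 of 39 tested members fell, Actn2, where 2.1% of the 20474 genes tested fell and 3.81% passed in either direction (Benjamini-Hochberg adjusted p under 0.05). All 39 log2 fold changes were negative, from -3.58 to -0.74 with a median of -2.63, against a median of -0.000605 and 50.1% negative over all genes tested. At an unadjusted p under 0.05 there were 38 of 39 members, all but Sln, against 21.5% of all genes. Since these genes followed each other across tumours, they are not 38 separate observations. The 40th member, Myl2, did not pass the filter on low counts and was not tested. In 33 members all 8 photon irradiated tumours were below the control median, in 5 members 7 were, in Myh2 6 and in Myl2 5. In none of the 40 were the 2 groups apart.

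Actn2, which anchors actin at the Z-disc, was at 0, 5.23 and 30.6 CPM in the photon controls (lowest, median and highest of 8) and at 0, 0.283 and 1.36 CPM in the photon irradiated tumours. The highest irradiated tumour was below the control median, and the lowest control was at 0. Its log2 fold change was -3.58 (SE 1.03, edgeR adjusted p = 0.0442). The call was kept in 4 of 16 fits that left out 1 photon library, those without photon control 2, 4 or 6 or photon irradiated tumour 4, and lost in the other 12, with the largest move without photon control 7 (-2.72, edgeR adjusted p = 0.117). It was also lost with no filter on low counts (adjusted p = 0.0591) and with robust dispersion (0.0573) in edgeR. DESeq2 called more genes in all, 1518 where edgeR called 781. With DESeq2, 13 members passed, namely Actn2, Myh1, Tnnt3, Mylpf, Myl1, Des, Myot, Xirp2, Klhl41, Cacna1s, Eno3, Pygm and Pgam2. The median of the members was -3.64 without photon irradiated tumour 1, the richest in muscle RNA of its group, and -2.21 without photon control 7.

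**Figure D3:**
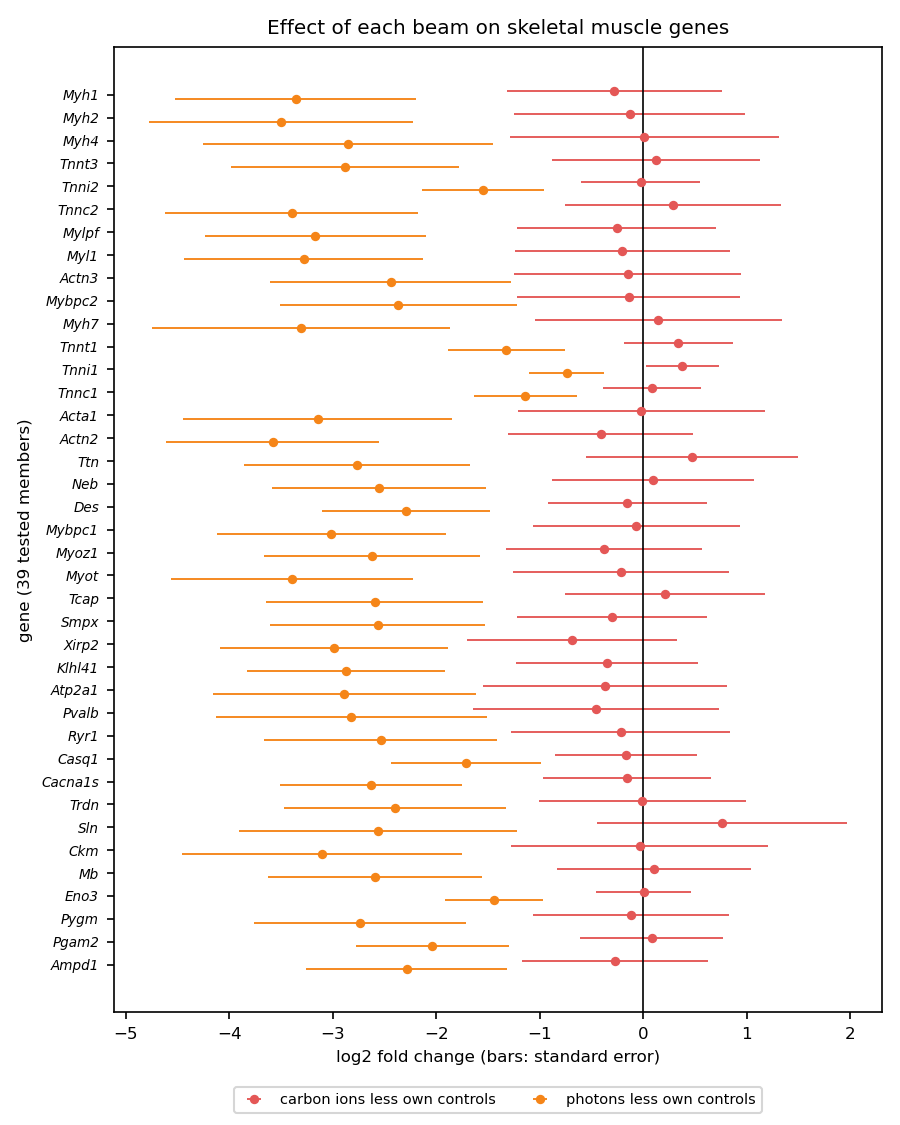
Log2 fold change of each of 39 tested members, with its standard error as a bar, for carbon ions (red) and photons (orange) against their own controls. The photon values all lie below 0 (median -2.63) and the carbon-ion values lie on both sides of it (median -0.12).

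The fast fibre contractile genes had a median log2 fold change of -3.03 after photons, over 10 members of which none passed the test. Myh4 was at 0.658, 145 and 349 CPM in the photon controls and at 0, 0.778 and 126 CPM in the photon irradiated tumours, and 3 irradiated libraries had 0 counts. In the carbon-ion arm it was at 0.0753, 62.4 and 786 CPM in controls and at 0.992, 99.4 and 1011 CPM in irradiated tumours. Its photon log2 fold change was -2.85 (SE 1.40, edgeR adjusted p = 0.231). Leaving out 1 photon library moved it to between -4.65 (without photon irradiated tumour 1) and -2.56 (without photon control 8).

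Myh1, the heavy chain of type 2X fibres, was at 0, 12.1 and 121.2 CPM in photon controls and 0, 0.809 and 6.82 CPM in photon irradiated tumours, a log2 fold change of -3.36 (SE 1.16, edgeR adjusted p = 0.0877). In the carbon-ion arm the controls were at 0.276, 9.86 and 122.9 CPM and the irradiated tumours at 0.168, 10.8 and 81.4 CPM, which covered nearly the same range. Myh2, the heavy chain of type 2A fibres, was at 0, 0.917 and 47.9 CPM in photon controls and 0, 0.416 and 2.63 CPM after photons, with -3.50 (SE 1.28, edgeR adjusted p = 0.105). The high end of Myh2 in the controls was 1 library, photon control 7, without which the log2 fold change was -1.44 (edgeR adjusted p = 0.516).

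Tnnt3, the fast troponin T, was at 0.259, 16.7 and 35.9 CPM in photon controls and 0.0917, 0.374 and 9.52 CPM after photons, with a log2 fold change of -2.88 (SE 1.10, edgeR adjusted p = 0.121). Mylpf, the regulatory light chain of fast fibres, was at 0.259, 20.1 and 50.1 CPM and at 0.0889, 0.740 and 10.3 CPM, with -3.17 (SE 1.07, edgeR adjusted p = 0.0798). In both genes the irradiated median was nearer to the lowest control than to the control median. The other fast members were Tnni2 (-1.55), Tnnc2 (fast troponin C, -3.40), Myl1 (the essential light chain, -3.28), Actn3 (-2.44) and Mybpc2 (fast myosin-binding protein C, -2.37).

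The slow fibre genes had a median log2 fold change of -1.23 after photons over 4 tested members, none of which passed. Myh7 was at 0, 1.21 and 5.87 CPM in photon controls and 0, 0.0370 and 0.741 CPM after photons, with -3.31 (SE 1.44, edgeR adjusted p = 0.170) and 3 libraries at 0 counts in each of the 4 groups. Tnnt1, slow troponin T, was at 0.0741, 0.407 and 1.33 CPM and at 0, 0.169 and 0.267 CPM, with -1.32 (SE 0.57, edgeR adjusted p = 0.165). Myl2, the regulatory light chain of slow and ventricular muscle, was at 0, 0.0355 and 2.66 CPM in photon controls and 0, 0.0110 and 0.257 CPM after photons, and had 0 counts in 13 of 32 libraries. Tnni1 (-0.74) and Tnnc1 (-1.14) had the smallest differences of all 39 members. In the carbon-ion arm Myh7 was at 0, 0.160 and 10.2 CPM in controls and 0, 0.896 and 13.6 CPM in irradiated tumours.

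Which myosin heavy chain was present differed from tumour to tumour within each group. Shares were taken of the summed counts of Myh4, Myh1, Myh2 and Myh7 in the 24 libraries with at least 100 such counts, which were 7 in each of 3 groups and 3 photon irradiated ones. Myh4 had the largest share in 20 libraries, Myh1 in 3 and Myh7 in 1. These genes are close relatives, so the authors' estimated counts may have split reads between them with error.

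Myh7 was almost absent from some tumours rich in muscle RNA and had a clear share in others. It was under 0.1% in 11 libraries, from 0.1% to 1% in 1 library and above that in 12. Photon control 8 had 0 of 14674 counts, which allows a share of up to 0.0204%, and photon control 5 had 0 of 11403, which allows up to 0.0263%. In 2 of the 6 libraries with 0 counts the depth does not place the share below 0.1%. Carbon-ion control 1 had 0 of 413 counts, which allows up to 0.726%. Carbon-ion irradiated tumour 8 had 0 of 1829, which allows up to 0.164%. Some libraries under 0.1% with a few counts had exact 95% binomial intervals that passed 0.1%. These were carbon-ion control 4 (2 of 3137, up to 0.230%), photon control 1 (3 of 8060, up to 0.109%) and photon irradiated tumour 1 (2 of 6044, up to 0.119%). Carbon-ion irradiated tumour 3, the richest in muscle RNA, had 6 of 47568 counts, or 0.0126% (95% exact binomial interval 0.00463 to 0.0275%), so much muscle RNA came with next to no slow myosin there. Carbon-ion control 3, also rich in muscle RNA, had 384 of 21719, or 1.77% (1.60 to 1.95%). The highest share was in photon control 3, with 52.6% of 194 counts (45.3 to 59.8%), in a library with a low sum of 111 CPM. Carbon-ion irradiated tumour 4 followed with 51 of 281 counts, or 18.1% (13.8 to 23.2%). A share under 0.1% was found in 4 carbon-ion controls, 3 carbon-ion irradiated tumours, 3 photon controls and 1 photon irradiated tumour. A share of at least 1% was found in 3, 4, 4 and 1 in the same order, and the last of these, photon irradiated tumour 6, rests on 2 of 180 counts, or 1.11% (0.135 to 3.96%). The limits for 0 counts are 3 counts of the total and lie below the upper ends of the exact intervals, which are 0.0251% for photon control 8, 0.0323% for photon control 5, 0.201% for carbon-ion irradiated tumour 8 and 0.889% for carbon-ion control 1. Intervals and limits cover counting error only.

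Among the heavy chains, Myh7 followed Myh2 more closely than Myh4. It had a Spearman correlation of 0.79 with Myl2 and 0.78 with Myh2 over the 32 libraries, and of 0.31 with Myh4. With the slow troponins Tnni1, Tnnt1 and Tnnc1 it had 0.60, 0.59 and 0.57. Myh1 and Myh4 had 0.90, and Acta1 and Ckm 0.98. Where Myh7 was under 0.1%, Myh4 made up 59.6 (carbon-ion control 1) to 99.0% of the 4 heavy chains, and where it was at least 1%, Myh4 made up 14.9 to 81.1%. The highest Myh1 share was 51.7% (93 of 180 counts, 44.1 to 59.2%) in photon irradiated tumour 6, which also had the highest Myh2 share at 28.3%.

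**Figure D4:**
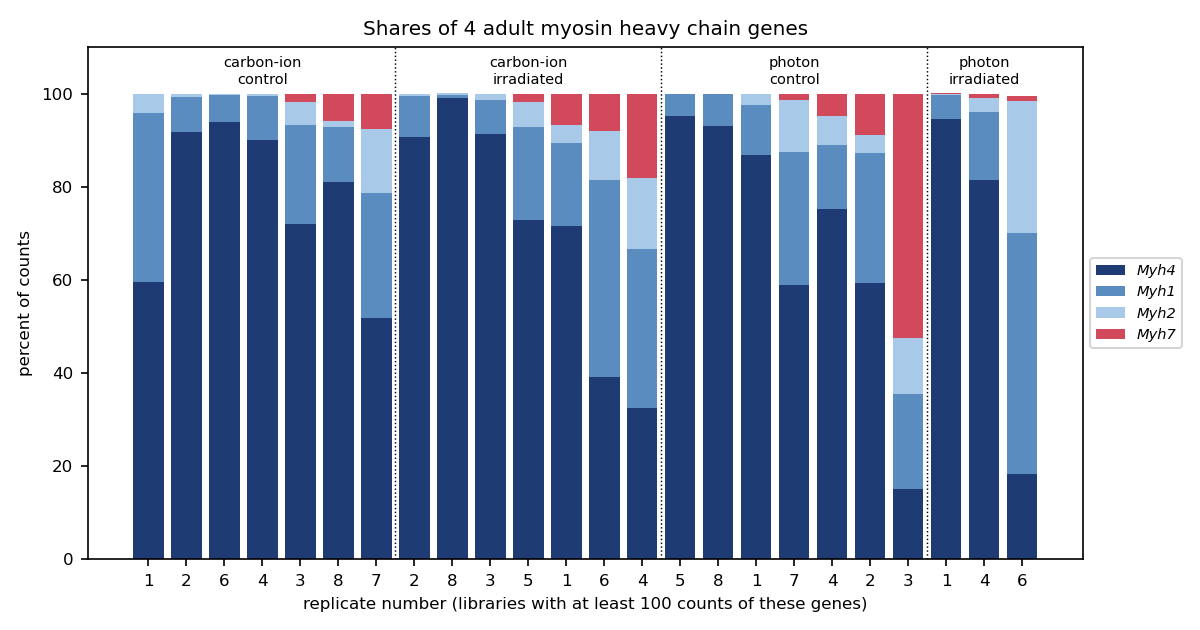
Percent of the summed counts of the 4 adult myosin heavy chain genes that each took, 1 bar per library with at least 100 such counts, by group. Myh4 (dark blue) is the largest part of 20 of 24 bars, and Myh7 (red) is absent or nearly so in 11 and reaches 52.6% in photon control 3.

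Members shared by both fibre types had a median log2 fold change of -2.82 after photons, and 1 of 12, Actn2, passed. Acta1, the actin of the thin filament, was at 0.889, 296 and 656 CPM in photon controls and 0.229, 3.73 and 124.3 CPM in photon irradiated tumours. It was at 0.201, 88.2 and 891 CPM in the controls of carbon ions and 1.04, 126 and 1247 CPM in carbon-ion irradiated tumours. Its photon log2 fold change was -3.15 (SE 1.30, edgeR adjusted p = 0.149), and the control and irradiated ranges overlapped over most of the irradiated one.

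Ttn encodes titin, the spring that spans the half-sarcomere. It was at 20.5, 707 and 3557 CPM in photon controls and 11.1, 39.6 and 695 CPM after photons, with -2.77 (SE 1.09, edgeR adjusted p = 0.133). It was at 6.25, 399 and 1605 CPM in the controls of carbon ions and 20.7, 273 and 4281 CPM in carbon-ion irradiated tumours. Des, the intermediate filament desmin, which smooth muscle also makes, was at 8.37, 113 and 257 CPM and at 3.62, 11.2 and 74.5 CPM in the photon groups, with -2.29 (SE 0.81, edgeR adjusted p = 0.0940). Desmin was never below 3.62 CPM in any library. The other 8 members of this block lay between -3.40 (Myot, myotilin of the Z-disc) and -2.55 (Neb, nebulin of the thin filament). The rest were the actin-binding Xirp2 (-2.99), the kelch protein Klhl41 (-2.88), Mybpc1 (slow myosin-binding protein C, -3.01), the Z-disc protein Myoz1 (-2.62), Tcap (telethonin, -2.59) and Smpx (-2.56).

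Calcium handling genes had a median log2 fold change of -2.56 after photons and none of 7 passed. Atp2a1 was at 1.07, 156 and 289 CPM in photon controls and 0.239, 2.04 and 87.7 CPM in photon irradiated tumours, with -2.89 (SE 1.27, edgeR adjusted p = 0.176). Ryr1, the calcium release channel, was at 1.44, 89.2 and 250 CPM and at 0.390, 3.40 and 80.2 CPM, with -2.54 (SE 1.13, edgeR adjusted p = 0.180). In both genes the irradiated median was far nearer to the lowest control than to the control median. Pvalb, the calcium buffer parvalbumin of fast fibres, was at 0.0370, 7.13 and 31.3 CPM and at 0, 0.0257 and 7.01 CPM, with 4 irradiated libraries at 0 counts and -2.82 (SE 1.31, edgeR adjusted p = 0.202). Sln, sarcolipin, which inhibits the calcium pump, was at 0, 0.601 and 8.59 CPM and at 0, 0.0746 and 2.24 CPM, with -2.56 (SE 1.34, edgeR adjusted p = 0.269), the largest p of the 39. Its highest value was 28.2 CPM in carbon-ion irradiated tumour 3. Without 1 photon library the Sln fold change lay between -4.37 (without photon irradiated tumour 1) and -1.93 (without photon control 7). Cacna1s, the voltage sensor of the T-tubule, was at 0.772, 8.07 and 18.6 CPM and at 0.0653, 0.495 and 4.75 CPM, with -2.63 (SE 0.88, edgeR adjusted p = 0.0787). Casq1 (calsequestrin, -1.71) and Trdn (triadin, -2.40) completed the block.

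Metabolic genes had a median log2 fold change of -2.44 after photons and none of 6 passed. Ckm, which regenerates ATP from phosphocreatine, was at 0.555, 96.3 and 208 CPM in photon controls and 0, 0.434 and 42.0 CPM in photon irradiated tumours, with -3.10 (SE 1.35, edgeR adjusted p = 0.172). It was at 0.0251, 32.2 and 370 CPM in the controls of carbon ions and 0.427, 54.4 and 497 CPM in carbon-ion irradiated tumours. The high end of the photon irradiated group was tumours 1 and 4, which had the largest muscle sums of that group. Pygm, muscle glycogen phosphorylase, was at 0.741, 28.7 and 52.2 CPM and at 0.436, 1.22 and 16.1 CPM, with -2.74 (SE 1.02, edgeR adjusted p = 0.113). Mb, the oxygen store myoglobin, was at 0, 1.38 and 15.5 CPM and at 0, 0.269 and 1.80 CPM, with -2.59 (SE 1.03, edgeR adjusted p = 0.137), and -1.56 without photon control 7 (edgeR adjusted p = 0.391). Eno3 (-1.44), Pgam2 (muscle phosphoglycerate mutase, -2.04) and Ampd1 (muscle AMP deaminase, -2.29) were the remaining members.

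Between carbon-ion irradiated tumours and their own controls, no member passed the test. In edgeR, 0 of 39 members and 0 of 20474 genes passed (0%), and 0 members had an unadjusted p under 0.05 against 5.75% of all genes. DESeq2 called 17 genes and no member. The log2 fold changes were negative in 25 members (48.5% of all genes were) and ran from -0.69 for Xirp2 to 0.76 for Sln, with a median of -0.12. The smallest p was that of Tnni1 (0.38, SE 0.35, edgeR adjusted p = 0.997). Acta1 was at -0.02 (SE 1.19, edgeR adjusted p = 0.999), an error at which a change of a few fold was not detectable. The median was -1.25 among M-titled libraries and 0.91 among D-titled ones, with 0 members called in either. It was -1.01 without carbon-ion irradiated tumour 3 and 0.48 without carbon-ion control 6.

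The carbon-ion effect less the photon effect, tested as an interaction, was positive in all 39 members (48% of all genes were negative), with a median of 2.53, and 0 members passed where 0.0781% of all genes did. At an unadjusted p under 0.05 there were 11 of 39 members and 13% of all genes, and DESeq2 called 0 members. The smallest p was that of Actn2 (3.17, SE 1.34, edgeR adjusted p = 0.311). A difference between the beams was not shown for any member, and the median was 1.61 without carbon-ion irradiated tumour 3. With M-titled libraries only, which all the photon libraries are, the median was 1.41, and Ampd1 (-0.086), Pvalb (-0.034) and Casq1 (-0.0023) were negative.

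Between the untreated tumours of the 2 arms the member differences were on both sides of 0. In edgeR 0 of 39 members passed (9.14% of all genes did), 0 had an unadjusted p under 0.05 against 23.1% of all genes, and DESeq2 called 0. The median log2 difference, carbon-ion controls less photon controls, was 0.05, and 15 of 39 were negative against 53.2% of all genes. The median was -0.46 without carbon-ion control 6 and 0.46 without photon control 7. Ttn was at -0.80 (SE 1.03, edgeR adjusted p = 0.705) and Pvalb at 0.82, the ends of the range.

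Set directly against photon irradiated tumours, carbon-ion irradiated tumours had higher values of all 39 members, with a median log2 difference of 2.69 against 0.00818 over all genes tested, of which 48.9% were negative. In edgeR 0 members passed, where 5.08% of all genes did, and all 39 had an unadjusted p under 0.05 against 25.2% of all genes. The smallest p was that of Cacna1s (2.86, SE 0.89, edgeR adjusted p = 0.0519). It passed in 5 of 16 fits that left out 1 library. DESeq2 called 13 members, and 2018 genes in all where edgeR called 1041. Among M-titled libraries alone the median was 1.41, and it was 1.68 without carbon-ion irradiated tumour 3 and 3.4996 without photon irradiated tumour 1. This contrast shares its libraries with the 2 effects above and carries the difference between arms as well.

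Other genes of striated muscle came from a list of 40, of which 39 were found under the listed symbol and were tested. Of these 4 were lower after photons, where 2.1% of all genes were. Tpm1, alpha-tropomyosin, which non-muscle cells also make, fell by 0.40 on the log2 scale (SE 0.11, edgeR adjusted p = 0.0434). Jph1, which holds the T-tubule to the reticulum, fell by 1.62 (SE 0.48, edgeR adjusted p = 0.0489). Ckmt2, the mitochondrial creatine kinase of muscle, fell by 3.80 (SE 1.02, edgeR adjusted p = 0.0325), from 0.0370, 0.788 and 3.05 CPM in controls to 0, 0.0298 and 0.224 CPM. Mylk2, the skeletal myosin light chain kinase, fell by 3.11 (SE 0.85, edgeR adjusted p = 0.0356), from 0.185, 4.35 and 12.0 CPM to 0.0688, 0.227 and 1.67 CPM. In each the highest irradiated tumour was below the highest control, and the groups overlapped. The list's median was -1.73, with 38 of 39 negative (50.1% of all genes were) and 28 at an unadjusted p under 0.05 against 21.5%. The calls of Ckmt2 and Mylk2 were each kept in 6 of 16 fits without 1 photon library, that of Tpm1 in 4 and that of Jph1 in 2.

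Genes of satellite cells, the stem cells of muscle, and of myogenic regulators had a summed level of 26.8 to 127 CPM, with a Spearman correlation of 0.82 with the summed members over the 32 libraries. Within the groups it was 0.60 in carbon-ion controls, 0.95 in carbon-ion irradiated tumours, 0.98 in photon controls and 0.24 in photon irradiated tumours. Most of it came from Mef2c (11.8 to 62.6 CPM), a MEF2 factor, and the integrin Itga7 (8.89 to 33.8 CPM). Pax7, the satellite cell factor, was at 0.103 to 1.14 CPM, and Myod1 and Myog, which drive myogenic differentiation, reached 3.75 and 4.97 CPM and were at 0 counts in 5 libraries each. Of 10 tested genes of this list 1 fell after photons, where 2.1% of all genes did. It was Cdh15 (M-cadherin, -1.74, SE 0.51, edgeR adjusted p = 0.0476), kept in 4 of 16 fits without 1 library. Cdh15 was also higher in carbon-ion than in photon irradiated tumours (2.09, SE 0.51, edgeR adjusted p = 0.0240), in 13 of 16 such fits. Of 8 tested embryonic myosin and acetylcholine receptor genes 1 passed there, where 5.08% of all genes did in either direction. It was the perinatal heavy chain Myh8, also higher after carbon ions (4.06, SE 1.14, edgeR adjusted p = 0.0360), in 7 of 16 such fits. Myh8 reached 9.996 CPM in carbon-ion irradiated tumour 3 against 2.31 CPM in the next library. Without that tumour the Myh8 difference was 2.26 (edgeR adjusted p = 0.142). Of 6 tested genes of the muscle atrophy list, 1 fell after photons, where 2.1% of all genes did. It was the stretch-responsive Ankrd2 (-4.38, SE 1.25, edgeR adjusted p = 0.0427), kept in 4 of 16. Ankrd2 had a median of 0.0634 CPM over the 32 libraries and 0 counts in 6 of them. Of the 6 tested genes 4 were positive after photons, and the list's median was 0.09.

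Markers of other cell types were read beside the members. The cardiac genes Myh6 and Nppa were at or near 0, with at most 5 and 6 counts in any library, and Myh6 at 0 counts in 30 of 32. Of the same list, Tnnt2 was at 13.0 to 40.4 CPM, with a correlation of 0.04 to the summed members, Myl4 reached 12.1 CPM (0.70) and Actc1, cardiac actin, 8.48 CPM (0.82). Smooth muscle genes, among them Acta2 and Myh11, summed to 363 to 809 CPM and had a correlation of 0.10 with the summed members. Carcinoma epithelium genes summed to 3200 to 6333 CPM, with 0.04. Within the groups of 8 these values were -0.67 in carbon-ion controls, 0.07 in carbon-ion irradiated tumours, 0.50 in photon controls and 0.12 in photon irradiated tumours for smooth muscle, and -0.14, -0.36, 0.52 and -0.24 for carcinoma epithelium, so neither list had 1 direction in all groups. Synpo2 of the smooth muscle list had 0.62 with the summed members over the 32 libraries. Of the 10 smooth muscle genes 8 were negative after photons, 1 at an unadjusted p under 0.05 against 21.5% of all genes, and 8 were positive for carbon ions, 5 at an unadjusted p under 0.05 against 5.75%. The carbon-ion effect less the photon effect was positive in 9 of the 10, with a median of 0.69. There 8 had an unadjusted p under 0.05 against 13% of all genes. In edgeR 0 passed in any of these 3 comparisons. The untreated arms differed too: 8 of the 10 were lower in carbon-ion than in photon controls, with a median of -0.37. Between controls 4 had an unadjusted p under 0.05 against 23.1% of all genes, and 1 passed where 9.14% did. Between the irradiated groups the median was 0.38, with 3 at an unadjusted p under 0.05 against 25.2%.

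The summed adipocyte genes had a correlation of 0.49 with the members. Single genes had 0.70 for Car3 but -0.12 for Adipoq, 0.05 for Plin1, 0.03 for Cfd, -0.05 for Lep, 0.13 for Plin4 and -0.19 for Lipe. Within the groups the sum had 0.26 in carbon-ion controls, 0.76 in carbon-ion irradiated tumours, 0.64 in photon controls and -0.05 in photon irradiated tumours. The sum was 31.0 to 612 CPM, and its group medians were 66.6 CPM in carbon-ion controls, 61.9 in carbon-ion irradiated tumours, 65.0 in photon controls and 37.2 in photon irradiated tumours and so lowest, like the member sum, in the photon irradiated tumours. Of 9 tested adipocyte genes 8 were negative after photons, 2 at an unadjusted p under 0.05, which is near the 21.5% of all genes, and 0 past the threshold, with a median log2 fold change of -1.43. In the carbon-ion arm, where the members had a median of -0.12, all 9 were negative, 4 at an unadjusted p under 0.05 against 5.75% of all genes and 0 past the threshold, with a median of -1.29. The highest sum, 612 CPM, with Adipoq at 23.2 CPM, was in carbon-ion control 5, which had the lowest muscle sum of its group. The part of these cell types in the photon comparison was not tested. Tendon genes, with Tnmd at 0 to 4.30 CPM, had a correlation of 0.37, and genes of Schwann cells and nerve one of -0.43. Of the latter Mbp, a myelin gene, rose after photons by 0.35 (SE 0.09, edgeR adjusted p = 0.0310).

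Endothelial genes summed to 241 to 700 CPM, with a correlation of 0.15 to the summed members and group medians of 399 CPM in photon controls and 304 CPM in photon irradiated tumours. All 10 tested were negative after photons, 8 at an unadjusted p under 0.05 against 21.5% of all genes, with a median log2 fold change of -0.44. Of these 2 fell, where 2.1% of all genes did. They were the angiopoietin receptor Tek (-0.91, SE 0.25, edgeR adjusted p = 0.0356) and the sialomucin Emcn (-0.55, SE 0.13, edgeR adjusted p = 0.0203). The untreated arms differed too: all 10 were lower in carbon-ion than in photon controls, with a median of -0.44. There 7 had an unadjusted p under 0.05 against 23.1% of all genes, and 2 passed where 9.14% did. Between the irradiated groups the median was -0.05, with 0 at an unadjusted p under 0.05 against 25.2%. The part of endothelial cells in the muscle comparison was not tested. Of 10 carcinoma epithelium genes 1 rose after photons, where 3.81% of all genes passed in either direction. It was the mesothelin gene Msln (0.43, SE 0.12, edgeR adjusted p = 0.0325). Skin keratinocyte genes summed to at most 8.71 CPM and pancreatic acinar genes to at most 21.3 CPM, with correlations of -0.31 and -0.06. The sums of the embryonic myosin and acetylcholine receptor list and of the cardiac list had correlations of 0.53 and 0.51, and that of the atrophy list -0.03.

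**Figure D5:**
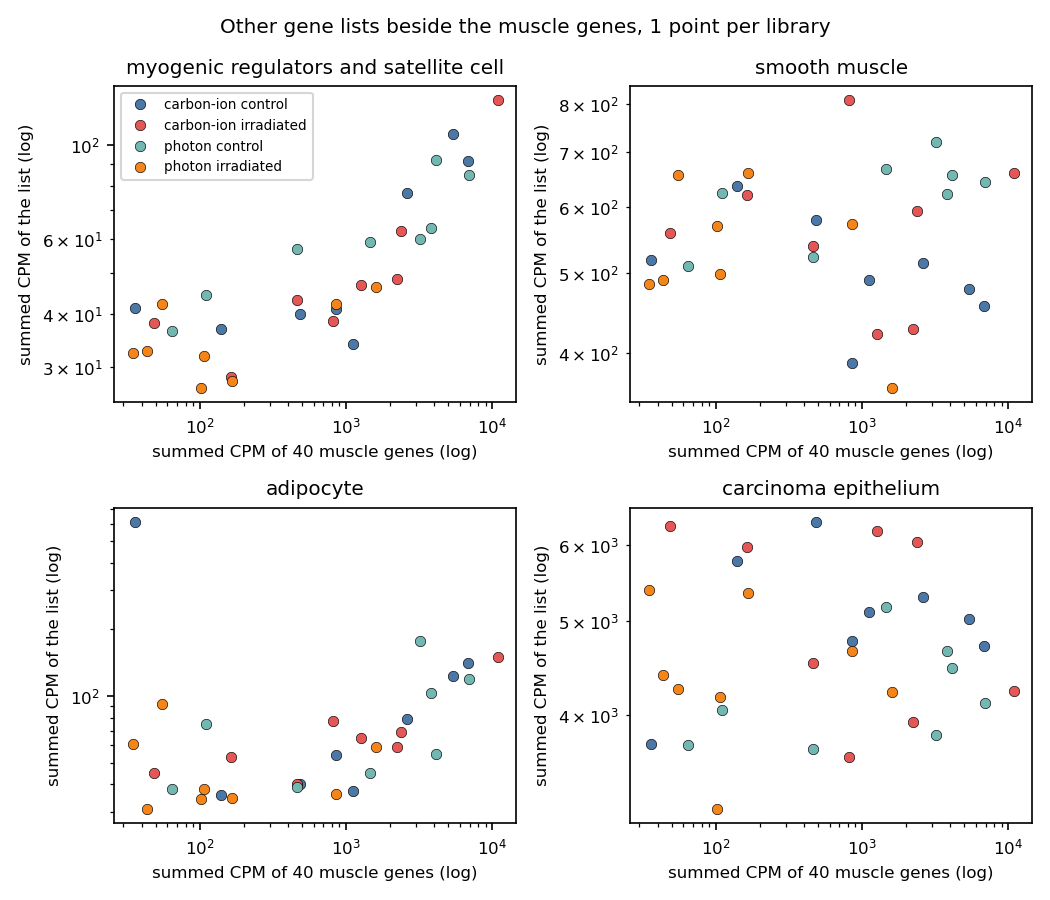
Summed CPM of 4 other gene lists (vertical, log axis) against the summed CPM of the 40 muscle genes (horizontal, log axis), 1 point per library and coloured by group. The Spearman correlation over the 32 libraries is 0.82 for the satellite cell and myogenic list, 0.49 for the adipocyte list, 0.10 for smooth muscle and 0.04 for carcinoma epithelium.

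Tested genes whose symbol was in no list were also ranked by how closely they followed the summed members over the 32 libraries. The closest were Mypn (Spearman 0.99), Eef1a2 (0.99), Hspb7 (0.98), Kcnc4 (0.98), Pdlim3 (0.98), Hjv (0.98), Art1 (0.97) and Ppp1r3a (0.97). Hjv is the current symbol of Hfe2, the gene of the striated muscle list that was not found under its listed symbol. Mypn encodes myopalladin of the Z-disc, and it was at 0 to 22.0 CPM with a median of 1.26 CPM. Eef1a2, the elongation factor form of muscle and nerve, ran from 0 to 46.9 CPM, and Ppp1r3a, which targets a phosphatase to muscle glycogen, from 0 to 16.8 CPM.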

How the data were processed

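Bulk RNA sequencing of 32 tumours was used. The authors deposited 1 table of estimated counts per gene. Per the submitters' processing notes, reads were handled with FastQC 0.12.0, Trimmomatic 0.32 and RSEM 1.3.3 on mm10, with no settings given in the sources used here. RSEM divides reads among related transcripts, so counts of close relatives carry added error. Per the labels' protocols, the libraries came from a stranded mRNA kit. Here the estimated counts were rounded to whole numbers, which moved library totals by at most 0.00403%. Genes were filtered by filterByExpr (minimum count 10), scaled by the trimmed mean of M values and fitted in edgeR 4.0.16 (R 4.3.3) with 1 quasi-likelihood model of 4 groups over 32 libraries, with Benjamini-Hochberg adjustment over 20474 genes and a threshold of 0.05. Steps were tested on simulated data with a capped spread and changes only in genes with many counts. That simulation does not speak for members with a wider spread or few counts. DESeq2 1.42.0, other scalings, no filter, robust dispersion, fewer libraries, title letters and leaving out each library were the alternatives. Gene lengths were from GENCODE and promoters from RefSeq. The members, the gene lists and the genes with full statistics were chosen with earlier results of these data known. The last were a stated set of 18 members, any member that passed and the smallest p of each comparison. They also held listed genes that passed, defining markers, and the 8 genes most like the members whose symbol was in no list.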

Additional observations from a re-analysis of the deposited data

Results flagged for a closer look

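Of 232 sets of 8 values tested for a library far from the other 7, 6 were flagged, and chance flags about 1 in 20 sets. Levels here are log2 CPM. Xirp2 in carbon-ion control 5 was at -2.45, with the next library at 3.19, and in carbon-ion irradiated tumour 7 at -2.36, with the next at 3.52. Both are the libraries with the lowest summed muscle level of their group. Tnnt1 in photon irradiated tumour 3 was at -4.12, with the next at -2.40. Casq1 in photon irradiated tumour 1, the richest in muscle RNA of its group, was at 2.67, with the next at 1.35. Outside the members, Myh11 in carbon-ion control 5 was at 3.53 (next 2.81) and Krt19 in photon irradiated tumour 3 at 7.86 (next 8.61).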

How the results depend on the processing

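Counts of calls depended on the fit. For carbon ions against controls, edgeR called 0 genes, 2 with D-titled libraries only (chosen after seeing the data) and 17 with DESeq2. For photons it called 781, and 431 with no filter and 1518 with DESeq2; of the members 1 passed, 0 with no filter or robust dispersion, 4 with only the 16 libraries compared and 13 with DESeq2. For the difference of effects 16 genes became 94 with upper-quartile scaling, 4 with no filter, 1 with M-titled libraries and 270 with DESeq2. Between controls 1871 became 973 with M-titled libraries. Between irradiated groups 1041 became 319 with no filter, 57 with the 16 libraries compared and 2018 with DESeq2, and 0 members became 13 with DESeq2. The member median moved to -1.25 (M titles) and 0.91 (D titles) for carbon ions and to 1.41 (M titles) between irradiated groups.

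Leaving out 1 library gave 0 to 5 genes for carbon ions, 239 (without photon control 3) to 1656 (without photon control 2) for photons, 5 to 108 for the difference, 1178 to 2180 between controls and 108 (without photon irradiated tumour 3) to 2159 (without carbon-ion irradiated tumour 3) between irradiated groups, and 0 to 3 members for photons and between irradiated groups. Over the alternatives 37 of 39 members took both directions for carbon ions, 37 between controls, 3 for the difference and 0 for photons or between irradiated groups. Directions turned, for example, for Acta1 for carbon ions (0.000378 with upper-quartile scaling, 0.91 with D titles, -1.08 to 0.53 leaving out 1 library), Actn2 (0.11 with D titles, -1.01 to 0.27), Xirp2 (0.020 with D titles), Sln (-1.17 to 1.66), and, for the difference with M titles, Pvalb (2.37 to -0.034), Ampd1 (2.02 to -0.086) and Casq1 (1.55 to -0.0023), and Pvalb between controls (-0.46 to 1.30). The cause of these moves was not tested. No paired analysis was possible because replicate numbers were assigned by accession order and tie no library of 1 group to one of another.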
